A study of Arabidopsis thaliana with 18 samples.

Results

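The 150 Arabidopsis thaliana genes described here stood higher in the gemin2 mutant than in wild type (WT) in each of 3 conditions. They were taken by rank from 17841 nuclear genes with a mean of at least 2 CPM (counts scaled to the library's total over nuclear genes) over 18 libraries, out of 33602 genes in the count table. In each condition d is the log2 ratio of the mean CPM in gemin2 to that in WT, with 0.5 CPM added to both, and the members are the 150 genes with the largest minimum of the 3 d values. The groups, with 3 libraries each, were gemin2 at 22 °C, after 1 h at 10 °C and after 24 h at 10 °C, and WT of the Col ecotype at the same temperatures and times. Poly(A) RNA came from whole plants aged 9 days under continuous white light, and the headers of the authors' deposited tables name the mutant allele gemin2-1. Nothing in them tells if the replicates came from plants sown apart, so the spread behind the p-values may be technical. Genotype differences of the members are given as a description with no test, because they chose the members.

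GEMIN2 is a core part of the complex that loads the ring of Sm proteins onto the small nuclear RNAs of the spliceosome, the machine that removes introns. Plants answer internal damage with several programmes of transcription. Impaired mitochondria signal through the membrane-bound NAC transcription factors ANAC013 and ANAC017, which bind the mitochondrial dysfunction motif (MDM), and damaged DNA signals through the NAC factor SOG1, which switches on cell cycle inhibitors and repair genes. Foreign or oxidised compounds switch on glutathione transferases, glycosyltransferases and efflux carriers.

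The libraries held between 15675913 and 53766089 gene counts. Ribosomal RNA and organelle genes, which the rule leaves out, held 22.595% of the counts of a single gemin2 library (C, 22 °C), against 0.378% to 4.103% in the other 17. GEMIN2 (AT1G54380) itself had 4.36, 4.33 and 5.23 CPM in gemin2 libraries A, B and C at 22 °C, against 12.8, 15.0 and 16.9 CPM in WT, and it was lower in every gemin2 library than in every WT library of the same condition. The 6 root markers summed to 57.8 to 61.3 CPM in gemin2 and 67.2 to 72.1 CPM in WT after 24 h, to 67.3 to 72.7 CPM in gemin2 and 83.2 to 92.5 CPM in WT after 1 h, and to 69.0 to 73.6 CPM in gemin2 and 70.5 to 79.6 CPM in WT at 22 °C. The 3 mesophyll markers were lower in gemin2 after 24 h, with sums of 19597 to 24512 CPM in gemin2 and 26731 to 27451 CPM in WT, and higher after 1 h, with 36392 to 39483 CPM in gemin2 and 27304 to 29578 CPM in WT. At 22 °C their sums overlapped, at 32778 to 36849 CPM in gemin2 and 34217 to 36421 CPM in WT. The 4 markers of dividing tissue summed to 52.2 to 70.8 CPM in gemin2 and 52.4 to 54.3 CPM in WT after 24 h. They include CYCB1;1, which is also in the DNA damage list below. Their sums overlapped in every condition, with 77.1 to 89.1 CPM in gemin2 and 74.9 to 85.1 CPM in WT at 22 °C. The 4 seed maturation markers summed to 0.987 to 13.767 CPM in WT at 22 °C and to at most 1.404 CPM in any other group. Defining floral markers were near 0, with sums of at most 0.344 CPM, and 0 of the markers are members. The part of these shifts in the levels below was not tested, and in whole plants fewer cells of a type cannot be told apart from less RNA per cell.

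The members' d values had medians of 1.2 at 22 °C, 1.34 after 1 h and 1.54 after 24 h, beside 0.12, 0.20 and 0.05 over all ranked genes. The minimum of the 3 values ran from 0.888 to 3.62. Members just inside the threshold were AT2G04460 at 0.894, AT3G05400 at 0.892 and AT5G25230 at 0.888, and the genes just outside were AT3G41762 at 0.887, CPuORF61 at 0.887 and AT2G23330 at 0.886. Among the members, 85 had their largest d after 24 h, 46 after 1 h and 19 at 22 °C, and in 29 the value after 24 h was more than 1 above that at 22 °C. Every gemin2 library was above every WT library for 150 members at 22 °C (31.9% of ranked genes), 150 after 1 h (32.5%) and 147 after 24 h (24.7%). The 3 members with overlapping libraries after 24 h were CYP82G1, ELI3-2 and TAT3. Since the rule used these contrasts, nothing is read from the counts.

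Together the members took up 0.679 ± 0.079% of nuclear counts in gemin2 and 0.147 ± 0.016% in WT after 24 h (SD, n = 3). At 22 °C the shares were 0.331 ± 0.009% in gemin2 and 0.14 ± 0.012% in WT, and after 1 h 0.355 ± 0.036% in gemin2 and 0.126 ± 0.007% in WT. The share in gemin2 was thus largest after 24 h, while the WT groups lay close to each other. Such sums weigh abundant members most, and they include 25 members ranked only through their level after 24 h. In the cold test below, 85 members rose and 28 fell in WT after 24 h. Close sums thus do not mean that members were unchanged. Members were spread over all 5 chromosomes, with 30 on chromosome 1, 34 on chromosome 2, 29 on chromosome 3, 16 on chromosome 4 and 41 on chromosome 5. The member whose start lies nearest to GEMIN2 is AT1G52640, at a distance of 689234 bases.

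**Figure D1:**
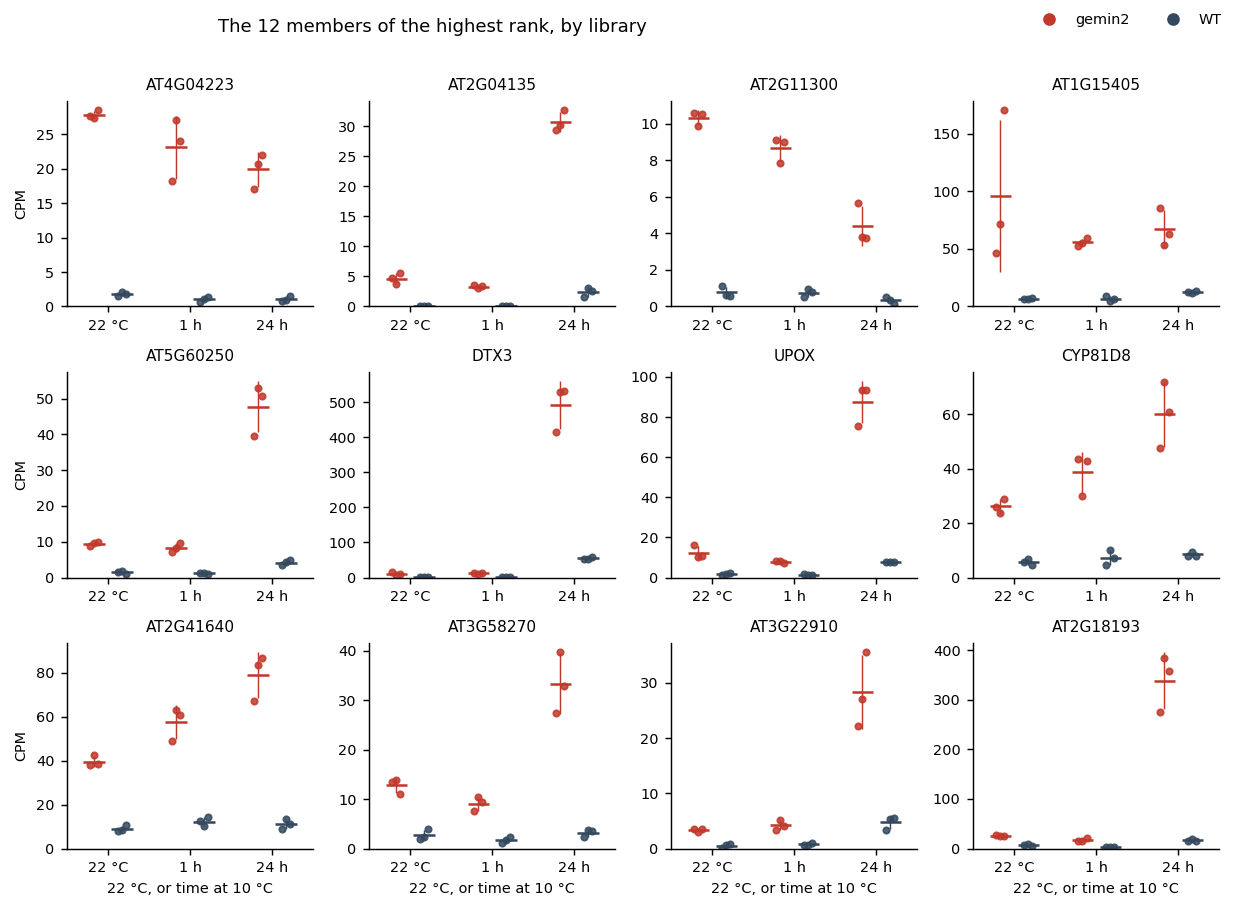
CPM of the 12 members with the largest minimum d, by condition. Points are libraries A, B and C, horizontal lines are means and vertical lines are ± 1 SD (n = 3); in all panels the gemin2 points lie above the WT points of the same condition, and AT1G15405 has a single high gemin2 library at 22 °C, with 170 CPM.

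The first 4 members by rank encode no annotated protein. AT4G04223, an RNA of unknown function at chr4:2036511-2037816 on the plus strand (TAIR10), had 27.7, 27.4 and 28.5 CPM in gemin2 and 1.48, 2.18 and 1.77 CPM in WT at 22 °C. After 1 h it had 18.2, 27.2 and 24.0 CPM in gemin2 and 0.71, 1.08 and 1.42 CPM in WT, and after 24 h 17.1, 20.7 and 22.1 CPM in gemin2 and 0.81, 0.956 and 1.46 CPM in WT. The groups lay far apart in all conditions, with mean CPM in gemin2 15.4, 21.6 and 18.6 times that in WT. The pseudogene AT2G04135 had 4.68, 3.75 and 5.5 CPM in gemin2 at 22 °C and 0 counts in each WT library, and 29.4, 30.3 and 32.7 CPM in gemin2 against 1.52, 3.08 and 2.59 CPM in WT after 24 h. Its d at 22 °C, 3.36, is set by the added 0.5 CPM. The RNA AT1G15405 had 46, 71.3 and 170 CPM in gemin2 at 22 °C, against 6.12, 6.66 and 7.5 CPM in WT. The value of 170 CPM is from library C, which had the large share of ribosomal RNA and organelle counts.

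In all, 12 members are non-coding RNAs or pseudogenes, and 7 members (4.67%) carry the annotation pseudogene, beside 0.824% of ranked genes, 8 (5.33%) of the next 150 by rank and 4 (2.67%) of the 150 genes lowest by the mirrored rule, those with the smallest maximum of the 3 d values. The d medians of the 12 members were 1.32, 1.43 and 2.04 at 22 °C, 1 h and 24 h. U3B and U3D, small nucleolar RNAs that help process ribosomal RNA, overlap the members AT5G53905 and HSFA9 on the opposite strand. The library kit does not mark strand, so strand cannot tell the reads of these pairs apart. U3D had 3.71, 3.37 and 4.41 CPM in gemin2 at 22 °C and HSFA9 had 3.71, 3.44 and 4.41 CPM. By position, HSFA9 intron I002 (chr5:21945425-21945502), which lies within U3D, held 95.59% to 100% of the HSFA9 count in every library. The HSFA9 values are thus almost wholly reads in the span of U3D, not reads of spliced HSFA9 RNA. In AT5G53905, intron I001, within U3B, held a mean of 27.8% in gemin2 at 22 °C, and I002, partly within U3B, 66.32%. WRKY33, EMB975, SMD1A, DREB19 and AT5G24490 also overlap a gene on the other strand, and their values are uncertain because strand is not marked.

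To show which letters the members share in front of their genes, the 250 bases before each gene start were searched on both strands for 9 motifs in 150 members and in the 17769 ranked genes with such a window. The MDM was searched in 2 forms, CTTGNNNNNCAAG and CTTGNNNNNCACG. Either form was present in 16 members (10.67%), beside 0.85% of ranked genes. The SOG1 letters, CTTNNNNNNNAAG, were present in 36 members (24.0%), beside 9.25% of ranked genes. Any MDM of the first form also holds the SOG1 letters, and SOG1 letters outside that form were in 28 members (18.67%), beside 8.84%. The other motifs stood closer to the background: TGACG, bound by TGA factors, in 24.67% of members and 22.09% of ranked genes, TTGAC, the core of the W-box bound by WRKY factors, in 48.0% and 44.72%, CACGTG, the G-box, in 9.33% and 9.17%, and CCGAC, the core of the DRE bound by CBF and DREB factors, in 16.0% and 14.91%. The evening element AAAATATCT, a clock motif, was in 3.33% of members and 2.41% of ranked genes, and the heat shock element GAANNTTCNNGAA in 0.67% and 0.48%. These shares are descriptions of letters with no test, and the members with a match do not show that a factor was bound.

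**Figure D2:**
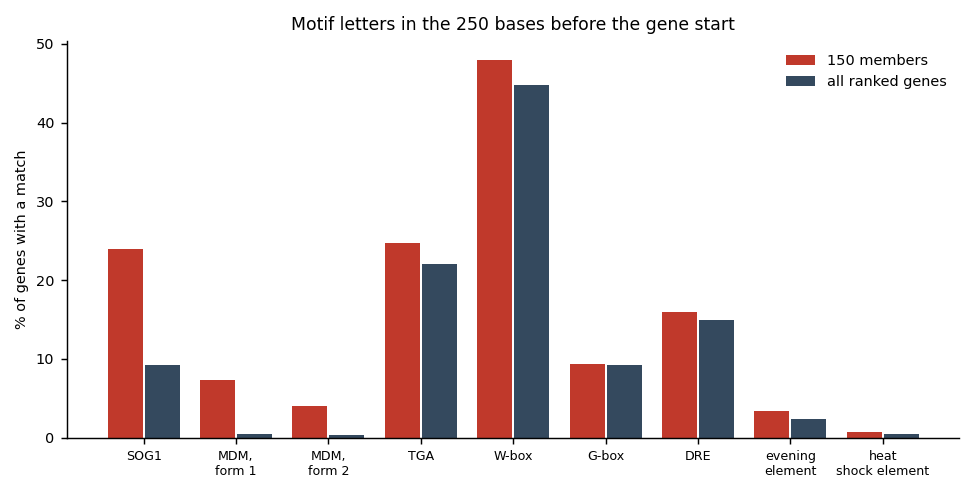
Share of genes, in percent, with a match to each of 9 motifs in the 250 bases before the gene start, for the 150 members (left bar) and all ranked genes with such a window (right bar). The bars differ most for SOG1 (24.0% and 9.25%) and the 2 forms of the MDM (7.33% and 0.5% for form 1, 4.0% and 0.35% for form 2).

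By role, 3 of the 4 mitochondrial, 3 of the 7 detoxification, 1 of the 9 DNA damage and 1 of the 13 repeat protein members below hold an MDM, and none of the other role groups does. The matches of 10 members, which include all but the repeat protein of these, are shown to let them be compared, each with 5 bases on either side, 5′ to 3′ on the strand that holds the motif, in the RefSeq sequence of TAIR10.1. Capitals mark the fixed letters of the motif. The match lies 132 bases before the gene start in UPOX (chr2:9254327-9254339, plus strand), 110 in HSP23.5 (chr5:20891053-20891065, plus strand), 206 in LETM1 (chr3:22102358-22102370, minus strand), 179 in CYP81D8 (chr4:17571871-17571883, minus strand) and 134 in UGT74E2 (chr1:1704813-1704825, minus strand). In ABCC3 it lies 146 bases before the start, on the strand opposite to the gene (chr3:4201399-4201411, gene on the minus strand). It lies 161 bases before the start in NAC044 (chr3:229010-229022, plus strand), 158 in AT2G18193 (chr2:7919423-7919435, minus strand), and 109 and 181 in AT4G12735 (chr4:7494331-7494343 and chr4:7494403-7494415, minus strand), which holds both forms. In AT2G41730 it lies 102 bases before the start (chr2:17409361-17409373, plus strand).
UPOX: agtaaCTTGctctcCAAGgagat
HSP23.5: ttttaCTTGgagacCACGcagtt
LETM1: tggccCTTGgggttCAAGtataa
CYP81D8: actttCTTGaggaaCAAGacttg
UGT74E2: cacatCTTGgtcgcCACGgaaca
ABCC3: tatatCTTGgagagCACGctcac
NAC044: tctggCTTGgggagCAAGgttag
AT2G18193: atttcCTTGcaccgCACGcttcc
AT4G12735, form 1: ttaagCTTGgccgcCAAGttata
AT4G12735, form 2: aagtcCTTGaacttCACGtacga
AT2G41730: aatatCTTGctggaCAAGcattt

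Whole windows of a pair of members are printed because they hold the letters of both motifs or a pair of SOG1 matches, in capitals. UPOX (chr2:9254209-9254458, plus strand) has an MDM and a further SOG1 match nearer the gene, and the window of SMR7 (chr3:10231419-10231668, minus strand) has SOG1 letters 192 and 122 bases before the start.
UPOX window: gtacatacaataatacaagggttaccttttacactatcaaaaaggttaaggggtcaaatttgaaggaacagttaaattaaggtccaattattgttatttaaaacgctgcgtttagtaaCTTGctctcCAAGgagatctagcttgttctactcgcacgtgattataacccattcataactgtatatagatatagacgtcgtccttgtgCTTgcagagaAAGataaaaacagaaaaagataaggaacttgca
SMR7 window: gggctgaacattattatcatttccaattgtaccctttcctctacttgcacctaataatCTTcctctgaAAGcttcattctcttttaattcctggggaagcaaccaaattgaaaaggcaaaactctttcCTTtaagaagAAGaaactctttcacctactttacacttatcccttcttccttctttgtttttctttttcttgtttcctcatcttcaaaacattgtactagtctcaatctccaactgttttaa

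Most genes with an MDM are not members. The 135 ranked non-members with either form had d medians of 0.19, 0.24 and 0.24, and 56.3% of them were above 0 in all conditions, beside 41.9% of all ranked genes. The 1608 non-members with SOG1 letters had medians of 0.13, 0.19 and 0.09, and 43.78% were above 0 in all conditions.

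Among the members, 79 could be grouped by role from their annotation, after their values were seen, and 71 were left without a role. Of the 4 mitochondrial members, 3 hold an MDM. UPOX (AT2G21640), a protein of unknown function used as a marker of oxidative stress, had 75.3, 93.4 and 93.6 CPM in gemin2 and 7.9, 7.5 and 7.98 CPM in WT after 24 h. At 22 °C it had 16.3, 10.3 and 10.7 CPM in gemin2 and 1.43, 1.92 and 2.08 CPM in WT. HSP23.5 (AT5G51440), a small heat shock chaperone, had 152, 178 and 191 CPM in gemin2 and 17.3, 16.7 and 19.3 CPM in WT after 24 h. LETM1 (AT3G59820), an inner membrane protein of ion exchange, had 60.7, 59.5 and 51.7 CPM in gemin2 and 24.2, 25.5 and 28.9 CPM in WT at 22 °C, and its d stayed near 1 in all conditions. AATP1 (AT5G40010), a mitochondrial ATPase, had 27.8, 35 and 35.9 CPM in gemin2 and 15, 11 and 10.3 CPM in WT after 24 h, and at most 2.84 CPM in any library of the other conditions.

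UPOX is the only member among the 6 ranked genes of a list of mitochondrial dysfunction genes. All 6 had d above 0 in the 3 conditions, beside 41.9% of all ranked genes. The d medians of the 6 were 0.61, 0.93 and 2.38. The alternative oxidase AOX1A had d of 0.63, 0.28 and 2.02, the regulator ANAC013 0.64, 1.03 and 2.12, ANAC017 0.33, 0.58 and 0.73, the dehydrogenase NDB4 0.47, 0.84 and 2.64, and the outer membrane ATPase OM66 0.59, 1.02 and 2.66. These genes thus fell short of the threshold at 22 °C or after 1 h and not after 24 h, with the exception of ANAC017, which fell short in all.

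The 7 detoxification members had d medians of 1.42, 1.58 and 3.15, and 6 of them had their largest d after 24 h. The efflux carrier DTX3 (AT2G04050) had 414, 530 and 533 CPM in gemin2 and 53.5, 53.0 and 58.9 CPM in WT after 24 h, against 14.8, 8.22 and 9.09 CPM in gemin2 and 2.57, 1.79 and 1.52 CPM in WT at 22 °C. Its neighbour in the family, DTX4 (AT2G04070), had at most 1.17 CPM in any library at 22 °C or 1 h, and 53.4, 61.4 and 70.5 CPM in gemin2 against 4.41, 4.56 and 4.82 CPM in WT after 24 h. DTX3 was thus far higher after 24 h than at 22 °C in either genotype, with the groups of libraries apart. DTX4 was ranked only through its level after 24 h, so its rise was part of how it was chosen. SOT12 (AT2G03760), a sulfotransferase of brassinosteroids, had 214, 328 and 268 CPM in gemin2 and 20.6, 29.3 and 27.5 CPM in WT after 24 h. ABCC3 (AT3G13080), an ATP-driven transporter, had 867, 1193 and 1128 CPM in gemin2 and 88.8, 116 and 102 CPM in WT, also after 24 h, with d at 22 °C and 1 h near 1. CYP81D8 (AT4G37370), a cytochrome P450, differed less between conditions, with 25.8, 23.6 and 29.0 CPM in gemin2 and 5.68, 6.66 and 4.71 CPM in WT at 22 °C and d values of 2.11, 2.33 and 2.75. GSTU2 (AT2G29480), a glutathione transferase, and UGT74E2 (AT1G05680), a glucosyltransferase that acts on an auxin, complete the group, with smallest d of 1.12 and 0.98.

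Of a list of 24 detoxification genes, 18 were ranked and 5 were members. Of the 18, 12 had d above 0 in all conditions (66.7%, beside 41.9% of ranked genes). The glucosyltransferases UGT73C5 and UGT73C6, which are not members, had d of 2.91 and 3.01 after 24 h and of 0.38 and -0.39 at 22 °C. GSTU5 had d of -0.19, -0.05 and -0.04, and OPR2, a reductase, 0.01, -0.05 and -0.71.

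The 9 members linked to DNA damage had d medians of 1.2, 1.38 and 1.93. NAC085 (AT5G14490), a transcription factor that holds back cell division after DNA damage, had the highest d of any member, 4.45, with 18.9, 25.8 and 24.9 CPM in gemin2 and 0.506, 0.478 and 0.769 CPM in WT after 24 h. It was at most 1.62 CPM in the other libraries of gemin2. Its relative NAC044 (AT3G01600) had 53.1, 60.2 and 65.0 CPM in gemin2 and 8.91, 8.22 and 5.99 CPM in WT after 24 h. SMR7 (AT3G27630), an inhibitor of cyclin-dependent kinases whose window is printed above, had 13.4, 15.5 and 12.8 CPM in gemin2 and 1.57, 2.41 and 1.82 CPM in WT after 24 h, and 5.29, 5.67 and 5.82 CPM in gemin2 and 1.97, 2.43 and 1.82 CPM in WT at 22 °C. GMI1 (AT5G24280), a repair protein with the hinge of chromosome maintenance proteins, had 108, 134 and 148 CPM in gemin2 and 24.3, 24.9 and 26.8 CPM in WT after 24 h. In all these genes the libraries of the genotypes stood apart.

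The remaining damage members had narrower ranges of d. PARP2 (AT4G02390), a poly(ADP-ribose) polymerase, had 14.8, 15.0 and 15.7 CPM in gemin2 and 5.63, 6.15 and 7.19 CPM in WT at 22 °C. PARG2, which removes poly(ADP-ribose), XRI1, induced by X-rays, CSA-1, needed for repair of ultraviolet damage, and AT5G49110, annotated like the Fanconi anemia group I protein of animals, had smallest d of 1.12, 1.03, 0.95 and 0.95. Of a list of 23 DNA damage genes, 6 were members and 18 had d above 0 in all conditions (78.3%, beside 41.9% of ranked genes), with medians of 0.50, 0.53 and 1.00. The list was chosen with earlier results of these data known. Among its non-members, the kinase inhibitor SMR5 had d of 2.5 after 24 h and 0.21 after 1 h, the mitotic cyclin CYCB1;1 1.72 after 24 h, the repair gene BRCA1 0.64, SOG1 itself 0.47, and BARD1, the partner of BRCA1, -1.36.

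The 10 members grouped as stress transcription factors had d medians of 1.28, 1.27 and 2.06, and 9 of them had their largest d after 24 h. The group includes HSFA9, whose counts lie almost wholly in the span of U3D. Of the AP2 factors, DREB19 (AT2G38340) had 18.5, 22.7 and 22.4 CPM in gemin2 and 1.82, 1.94 and 1.09 CPM in WT after 24 h, and DREB2B and DREB2C had d of 2.55 and 2.09. WRKY33 (AT2G38470), a regulator of defence, had 144, 138 and 152 CPM in gemin2 and 57.7, 70.4 and 66.8 CPM in WT after 1 h, and 24.2, 25.7 and 26.9 CPM in gemin2 and 12.0, 16.2 and 10.13 CPM in WT at 22 °C. Its libraries were highest after 1 h in both genotypes. WRKY25 had smallest d of 1.38, and the heat shock factors HSFA4A and HSFA8 of 0.92 and 1.34. NAC103, a factor of the unfolded protein response, and ANAC087 had d of 2.26 and 2.02 after 24 h. BIP3, an inducible chaperone of the endoplasmic reticulum, was the only member in a list of heat shock genes, with d of 1.55, 1.49 and 1.58 and at most 7.01 CPM in any library.

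The 12 defence members went the other way by condition, with d medians of 1.38 at 22 °C, 1.61 after 1 h and 1.22 after 24 h. TAT3 (AT2G24850), a tyrosine aminotransferase induced by jasmonate, had 73.5, 12.2 and 21.6 CPM in gemin2 and 7.55, 11.7 and 9.32 CPM in WT at 22 °C, and its libraries overlapped after 24 h, with 20.9, 26.0 and 10.8 CPM in gemin2 and 2.58, 23.3 and 3.48 CPM in WT. The spread between libraries of one group was thus as wide as the difference. The thionin THI2.2, an antimicrobial peptide, had 18.2, 19.2 and 18.2 CPM in gemin2 and 4.49, 9.8 and 5.62 CPM in WT at 22 °C. The immune receptor AT5G41750 had 16.0, 18.1 and 18.5 CPM in gemin2 and 3.26, 4.26 and 4.54 CPM in WT after 1 h. SAG101, a partner of the immune regulator EDS1, had d of 1.05, 1.00 and 1.26, beside 0.33, 0.55 and 0.86 for EDS1 and 0.26, -0.02 and 0.37 for PAD4, the other partner. PR1, a marker of salicylic acid, had d of 2.18, 3.99 and 0.54 and is not a member.

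**Figure D3:**
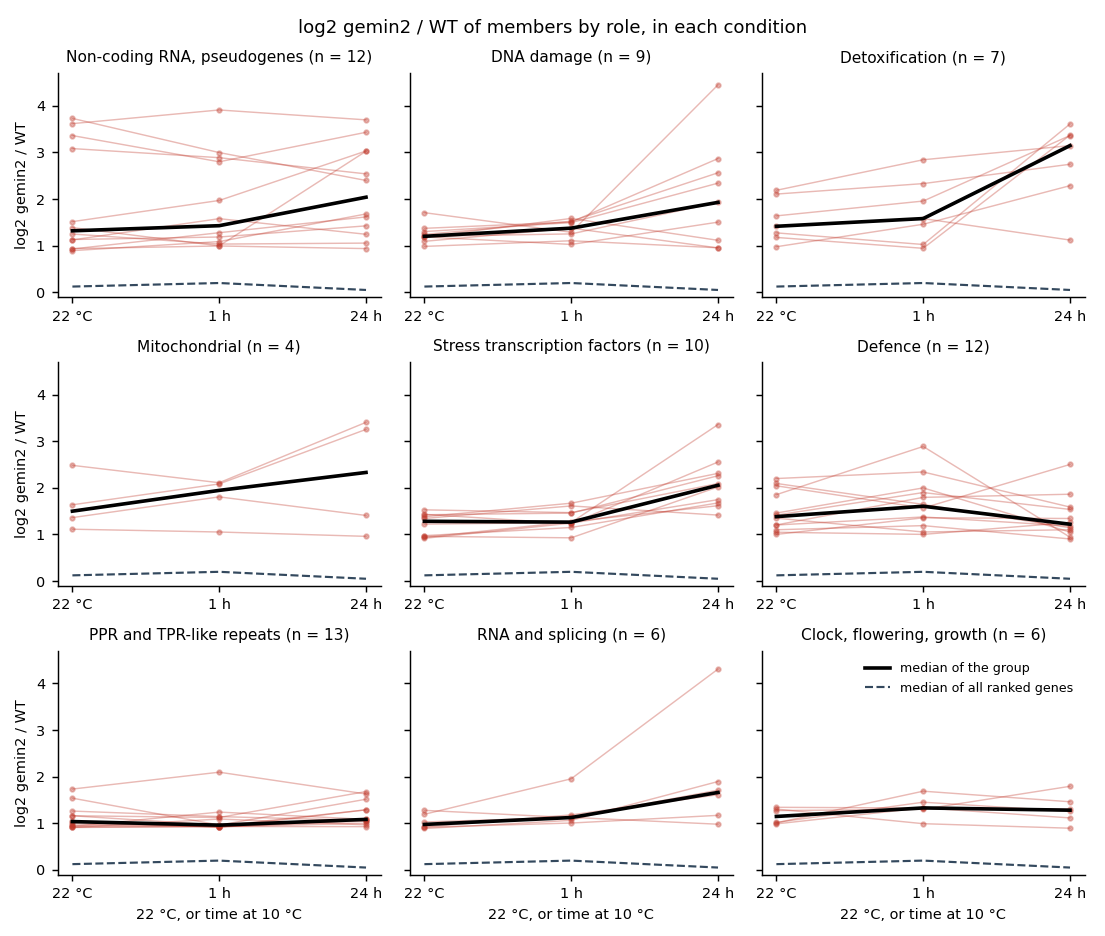
d (log2 of mean CPM in gemin2 over WT, with 0.5 CPM added) of the members in 9 role groups at 22 °C and after 1 h and 24 h at 10 °C. Each thin line is a member, the thick line the median of the group and the dashed line the median of all ranked genes; the detoxification median reaches 3.15 after 24 h, and the median of the repeat proteins lies between 0.96 and 1.08.

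The 13 members with pentatricopeptide (PPR) or related tetratricopeptide-like (TPR-like) repeats, which bind and edit RNA in chloroplasts and mitochondria, had d medians of 1.04, 0.96 and 1.08, and 12 of them have no intron. EMB975 (AT2G01860) had 15.5, 16.4 and 17 CPM in gemin2 and 4.39, 4.03 and 5.22 CPM in WT at 22 °C, with d of 1.73, 2.10 and 1.63. The editing factors OTP84 and SLO2 had d of 1.26, 1.14 and 1.06, and of 0.99, 0.93 and 1.00. All 6 members annotated as PPR are intronless. Over the 251 coding PPR genes that were ranked, d medians were 0.39, 0.49 and 0.45, and 81.7% were above 0 in all conditions, beside 42.1% of coding genes. The 174 PPR genes with no intron had medians of 0.47, 0.55 and 0.51, against 0.19, 0.35 and 0.17 for the 77 with introns. The 224 TPR-like genes had medians of 0.31, 0.40 and 0.33, and 64.7% were above 0 in all conditions. The 2305 other intronless genes, TPR-like ones included, had medians of 0.12, 0.14 and 0.01. The difference seen in PPR genes was thus not shared by intronless genes at large. The median level was 6.38 CPM in PPR genes and 16.7 CPM in coding genes. The PPR family was looked at after the values were seen, and no test was run on it.

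Of the 138 coding members, 34 (24.6%) have no intron, beside 14.3% of ranked coding genes, 28.8% of the coding genes among the next 150 by rank and 17.02% among the 150 genes lowest by the mirrored rule. The median number of introns was 2 in members and 4 in ranked coding genes. The lowest 150 also had a median of 2, so both ends of the ranking had fewer introns than the whole.

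The 71 members without a role had d medians close to those of the whole, 1.2, 1.36 and 1.51. AT5G60250, a RING finger protein, had 39.6, 52.9 and 50.8 CPM in gemin2 and 3.49, 4.28 and 4.82 CPM in WT after 24 h, and 8.89, 9.69 and 9.84 CPM in gemin2 and 1.43, 1.86 and 1.01 CPM in WT at 22 °C. AT2G18193, an ATPase with an MDM, had 275, 384 and 358 CPM in gemin2 and 15.6, 19.9 and 15.2 CPM in WT after 24 h. AT4G12735, an uncharacterized protein with both forms of the MDM, had 17.5, 27.6 and 24.1 CPM in gemin2 and 0.76, 0.812 and 0.567 CPM in WT after 24 h. It had at most 1.44 CPM in any library of the other conditions, so it was ranked only through its level after 24 h. HTR11, a histone H3 variant gene with no intron, had 11.4, 13 and 13.4 CPM in gemin2 and 1.73, 1.73 and 2.13 CPM in WT at 22 °C. In these genes the genotypes did not overlap in any condition.

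The 6 members grouped for RNA and splicing had d medians of 0.98, 1.12 and 1.66. AGO3 (AT1G31290), an Argonaute protein that binds small RNAs, had 28.4, 23.8 and 37.4 CPM in gemin2 and 0.456, 1.15 and 1.5 CPM in WT after 24 h. At 22 °C it had 5.8, 5.12 and 4.84 CPM in gemin2 and 1.58, 2.24 and 2.23 CPM in WT, and after 1 h 17.39, 16.9 and 18.1 CPM in gemin2 and 4.13, 3.57 and 4.7 CPM in WT. SMD1A (AT3G07590), which encodes the Sm protein SmD1, a subunit of the ring that GEMIN2 helps to assemble, had 27.5, 29.7 and 24.2 CPM in gemin2 and 15.3, 11.5 and 15.7 CPM in WT at 22 °C, and 58.4, 66.5 and 70.5 CPM in gemin2 and 27.0, 28.7 and 30.3 CPM in WT after 24 h. The Pumilio protein PUM3, which binds messenger RNA, had 64.2, 72.2 and 60.9 CPM in gemin2 and 29.7, 31.0 and 35.3 CPM in WT at 22 °C. AT1G14640, with a SWAP domain found in splicing factors, AT3G16650, a WD40 repeat protein, and AT5G25230, related to elongation factors, had d of 1.61, 1.71 and 1.90 after 24 h.

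SOC1 (AT2G45660), a promoter of flowering, differed by about the same ratio in each condition, with d of 1.34, 1.33 and 1.31. It had 27.9, 32.1 and 27.4 CPM in gemin2 and 9.73, 12.9 and 10.9 CPM in WT at 22 °C. The clock gene PRR9 (AT2G46790) had 15.3, 15.9 and 16.7 CPM in gemin2 and 6.91, 10.6 and 5.37 CPM in WT at 22 °C, and is the only member of a list of 19 clock genes. Its relatives PRR7 and PRR5 had d of 1.59 and 1.54 at 22 °C and of 0.10 and 0.15 after 24 h, and LHY had -1.67, -0.79 and 0.79. GASA1, a gibberellin-responsive gene, had 827, 731 and 957 CPM in gemin2 and 363, 448 and 440 CPM in WT at 22 °C, with gemin2 libraries between 530.5 and 1344 CPM after 1 h. Of 14 ranked genes in a list of cold response genes, 9 had d above 0 in all conditions (64.3%, beside 41.9% of ranked genes). The list holds 0 members, and as only 150 of 17841 ranked genes are members, nothing is read from this.

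The cold comparisons within each genotype were not the contrasts of the rule and were tested, though they rest on the same libraries, so a gene high in gemin2 after 24 h was more easily chosen. The question is how the members moved between 22 °C and 10 °C in either genotype. Each genotype had a single 22 °C group, with none kept there for 1 h or 24 h. The effect of cold thus cannot be told apart from that of elapsed time. After 24 h at 10 °C most members were higher than at 22 °C in both genotypes, among them the carriers DTX3 and ABCC3, the repair protein GMI1 and the mitochondrial UPOX and HSP23.5. After 1 h fewer members were called in either genotype, with WRKY33 and TCH4 far higher in both. By the quasi-likelihood test of edgeR, with p-values adjusted after Benjamini and Hochberg over 21918 genes and a threshold of 0.05, 101 members rose and 22 fell after 24 h in gemin2 (67.3% and 14.7%), where 30.1% and 30.0% of genes tested did. In WT 85 rose and 28 fell (56.7% and 18.7%), where 27.1% and 28.6% of genes tested did. The median log2 change of members was 1.12 in gemin2 and 0.82 in WT, beside -0.005 and -0.022 over all genes tested. All 150 members passed the filter on low counts, but 25 had a mean under 2 CPM over the 12 libraries at 22 °C and 1 h. These were ranked only through their level after 24 h, so their rise was part of how they were chosen, and DTX4, NAC044, NAC085, DREB19 and AATP1 are among them. Over the 125 other members, a limit chosen after seeing the data, 77 rose and 22 fell in gemin2 after 24 h (61.6% rose, beside 33.0% of 17574 ranked genes at that limit, of which 32.3% fell). In WT 66 rose and 28 fell (52.8% and 22.4%), beside 29.8% and 31.4%. The medians of the 125 were 0.85 in gemin2 and 0.62 in WT. Of the 150 genes lowest by the mirrored rule, 36 rose and 56 fell in gemin2 and 45 rose and 50 fell in WT.

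Of the members, 82 rose in both genotypes after 24 h, 21 fell in both, 18 rose in gemin2 and were not called in WT, 1 rose in gemin2 and fell in WT, and 3 rose in WT and were not called in gemin2. These counts include the 25 members ranked only through their level after 24 h. Over all genes tested 30.1% rose in gemin2 and 27.1% in WT, but the joint shares were not counted, so nothing is read from the joint counts. Whether the responses differ was not tested, since the difference between them is a difference of d values that chose the members. The smallest adjusted p-values for a rise in gemin2 belonged to ALAAT2 (AT1G72330), an alanine aminotransferase, with a log2 change of 3.15 ± 0.10 (SE, edgeR adjusted p = 4.35e-14), and ABCC3, with 3.36 ± 0.11. In WT these genes changed by 1.66 ± 0.10 and 1.07 ± 0.11. ALAAT2 had 109, 134 and 131 CPM in gemin2 after 24 h and 15.6, 14.7 and 13.7 CPM in gemin2 at 22 °C, against 18.7, 18.9 and 21.8 CPM in WT after 24 h and 5.63, 6.08 and 6.64 CPM in WT at 22 °C. DTX3 changed by 5.58 ± 0.25 in gemin2 and 4.76 ± 0.27 in WT. The fitted changes of DTX4, 6.02 ± 0.23 in gemin2 and 5.10 ± 0.39 in WT, are a description, since this gene was ranked only through its level after 24 h. In WT the smallest adjusted p-values for a rise belonged to LETM1, with 2.24 ± 0.11 (edgeR adjusted p = 2.76e-12), beside 2.18 ± 0.10 in gemin2, and to AT2G18690, an uncharacterized protein, with 3.34 ± 0.17, beside 3.42 ± 0.15 in gemin2. These were rises of similar size in both genotypes.

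By role, all 7 detoxification members rose after 24 h in gemin2 and 6 in WT, all 10 stress transcription factors in gemin2 and 8 in WT, all 4 mitochondrial members in both, and 8 of 9 DNA damage members in gemin2 and 6 in WT. Of the 13 repeat proteins 10 rose in each genotype. Over all genes tested 30.1% rose in gemin2 and 27.1% in WT, and these role counts include members ranked only through 24 h. The stress transcription factors include HSFA9, with counts almost wholly in the span of U3D, which was called in gemin2 and not in WT. SMR7 rose by 1.38 ± 0.16 in gemin2 (edgeR adjusted p = 4.88e-07), and its WT change was -0.11 ± 0.20 (adjusted p = 0.678). PARP2 rose by 0.79 ± 0.13 in gemin2, and its WT change was -0.05 ± 0.14 (edgeR adjusted p = 0.785). GMI1 rose by 2.82 ± 0.15 in gemin2 and 1.72 ± 0.16 in WT. CYP81D8 rose by 1.26 ± 0.21 in gemin2 (edgeR adjusted p = 4.10e-05), and its WT change was 0.56 ± 0.25 (adjusted p = 0.0654). Over the whole list of DNA damage genes, 14 of 23 rose and 3 fell in gemin2 and 9 rose and 4 fell in WT, with median changes of 0.54 and -0.05. Over the list of mitochondrial dysfunction genes 7 of 8 rose in gemin2 and 6 in WT, with medians of 2.80 and 1.61.

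AGO3 moved in opposite directions. After 24 h it rose by 2.57 ± 0.19 in gemin2 (edgeR adjusted p = 1.31e-09) and fell in WT, with a change of -0.95 ± 0.28 (adjusted p = 0.00832). After 1 h it had risen in both, by 1.80 ± 0.19 in gemin2 and 1.17 ± 0.24 in WT. No other member was called in opposite directions.

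Members that fell after 24 h fell in both genotypes for the most part. AT1G52100, a mannose-binding lectin, had 1.7, 2.78 and 2.96 CPM in gemin2 after 24 h and 133, 97.6 and 80.3 CPM in gemin2 at 22 °C, against 1.16, 0.86 and 1.21 CPM in WT after 24 h and 37.7, 48.3 and 44.0 CPM in WT at 22 °C. Its log2 changes were -5.30 ± 0.20 in gemin2 and -5.41 ± 0.21 in WT. AT5G24490, annotated as a ribosomal protein of the small subunit, changed by -2.50 ± 0.11 in gemin2 and -3.28 ± 0.11 in WT, and the protein kinase CIPK20 by -1.79 ± 0.16 and -1.70 ± 0.17. GASA1 changed by -1.53 ± 0.25 in gemin2 and -2.09 ± 0.25 in WT. SOC1 and PRR9 did not pass in either genotype, with changes of -0.05 ± 0.13 and -0.11 ± 0.19 in gemin2 and -0.10 ± 0.15 and -0.48 ± 0.22 in WT.

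After 1 h at 10 °C, 20 members rose and 5 fell in gemin2 (13.3% and 3.33%), where 6.27% and 3.16% of genes tested did, and 25 rose and 16 fell in WT (16.7% and 10.7%), where 14.7% and 10.8% did. The WT shares were thus near the background. The median change was -0.02 in gemin2 and -0.06 in WT. WRKY33 rose by 2.57 ± 0.15 in gemin2 (edgeR adjusted p = 6.03e-10) and 2.48 ± 0.15 in WT, and TCH4, a cell wall enzyme induced by touch, by 2.63 ± 0.28 and 2.75 ± 0.30. The immune receptor AT5G41750 rose by 2.11 ± 0.17 in gemin2 and 1.80 ± 0.22 in WT, HSFA4A by 1.18 ± 0.12 and 0.94 ± 0.13, and the sugar carrier MSS1 by 1.103 ± 0.13 and 1.68 ± 0.14. Of the 10 stress transcription factors 7 rose in gemin2 and 5 in WT, while 0 of 9 DNA damage members rose in either. HSFA9, with counts almost wholly in the span of U3D, is among the 7 and not among the 5. HSP23.5 fell after 1 h, by 0.63 ± 0.16 on the log2 scale in gemin2 and by 1.15 ± 0.20 in WT, and AT2G18193, an ATPase, by 0.50 ± 0.15 and 1.11 ± 0.18. Left out in turn, gemin2 library A at 22 °C and gemin2 libraries B and C after 1 h each ended the gemin2 call for HSP23.5, with changes of -0.42, -0.49 and -0.60. For AT2G18193 each of the 6 gemin2 libraries but C after 1 h did so, with values between -0.38 and -0.54. Both genes were higher after 24 h, by 3.05 ± 0.17 in gemin2 and 1.36 ± 0.18 in WT for HSP23.5, and by 3.79 ± 0.16 and 1.2 ± 0.17 for AT2G18193.

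**Figure D4:**
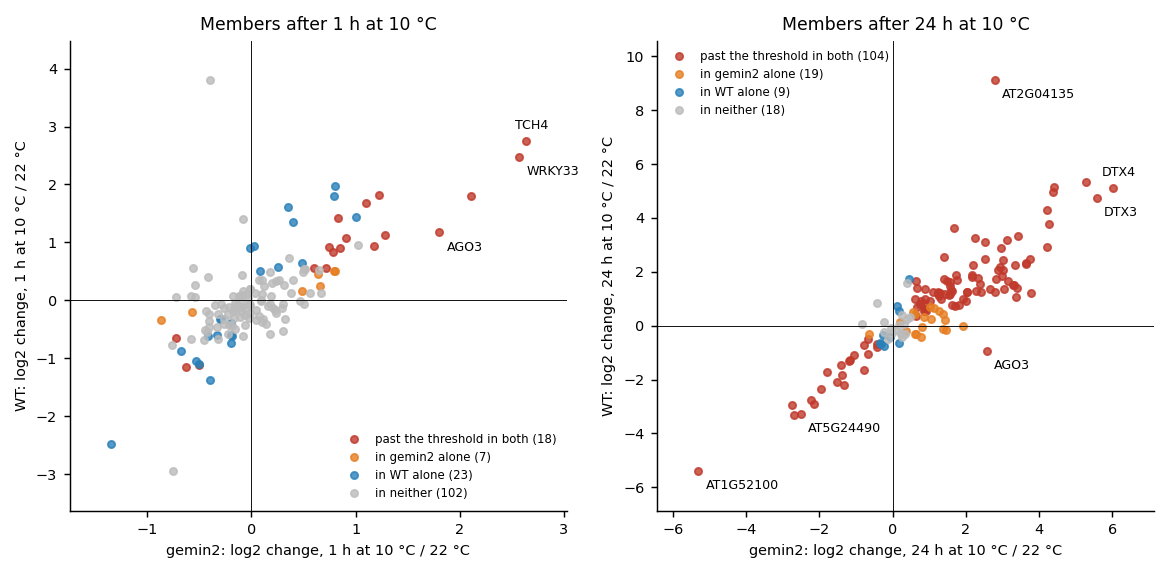
log2 change in the cold of each member in gemin2 (horizontal axis) and WT (vertical axis), after 1 h (left) and 24 h (right) at 10 °C, coloured by whether the edgeR adjusted p was under 0.05 in both genotypes, in gemin2, in WT or in neither. After 24 h most points lie in the upper right quadrant, AGO3 lies below the horizontal line at 2.57 and -0.95, and the height of AT2G04135 is no size, since its WT libraries at 22 °C had 0 counts.

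Intron reads bear on the mutant because GEMIN2 acts in splicing. Of 575 member introns, 47 in 34 members had enough counts to be tested, as counts beside the count of their own gene, which the rule used as well. Introns called with a larger share in gemin2 numbered 5 at 22 °C, 6 after 1 h and 5 after 24 h, where 3.88%, 11.9% and 14.9% of 9366 introns were called, and 0, 0 and 2 had a smaller share, where 0.897%, 1.64% and 1.57% were. Median log2 differences of gemin2 against WT were 0.17, 0.15 and 0.32 in members and 0.09, 0.24 and 0.23 over all introns. These are comparisons of the genotypes that chose the members, so nothing is read from the counts, and the values below are descriptions.

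In PRR9, reads of intron I007 (chr2:19234710-19234802) were 11.03%, 10.6% and 9.79% of the gene's count in gemin2 and 2.14%, 1.21% and 0% in WT at 22 °C, and 16.8%, 19.6% and 18.3% in gemin2 and 6.11%, 5.18% and 2.86% in WT after 24 h. The matching intron of the member AT2G46670, a near copy of part of PRR9, had shares of 26.3%, 23.0% and 21.4% in gemin2 and 4.76%, 2.47% and 0% in WT at 22 °C. Its summed counts were nearly those of the PRR9 intron, with 136 and 138 in gemin2 and 5 and 5 in WT at 22 °C. After 1 h both introns had 266 counts in gemin2 and 42 in WT. The reads thus look counted in both copies, so the 2 introns are not separate observations, and which copy the reads came from is uncertain. In WRKY33, reads of intron I001 (chr2:16108719-16108967) were 3.28%, 2.39% and 2.10% in gemin2 and 0.217%, 0.0746% and 0.041% in WT after 1 h, and 2.37%, 3.41% and 4.92% in gemin2 and 0%, 0.127% and 0.544% in WT after 24 h, while the genotypes overlapped at 22 °C. In XRI1, intron I002 (chr5:19759256-19759694) had 7.25%, 5.71% and 6.18% in gemin2 and 1.21%, 1.08% and 1.498% in WT after 24 h, again with overlap at 22 °C. In GASA1, intron I001 had a smaller share in gemin2 after 24 h, with 0.409%, 0.364% and 0.322% in gemin2 and 0.930%, 1.17% and 0.429% in WT. The calls of GASA1 intron I002 rest on a few libraries, since it had 2.62%, 0.127% and 3.02% in gemin2 and 0.109%, 0.0572% and 0.207% in WT at 22 °C, and 0.0852%, 0.195% and 0.134% in gemin2 and 3.37%, 0.456% and 0.0429% in WT after 24 h.

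Of 48 alternative splicing bins in members, 16 were tested, and 1 was called with a larger share in gemin2 in each condition (1.76%, 6.06% and 4.54% of 3809 bins). The call was a bin of AT1G52100 at 22 °C and bin E014 of ATSNAK2 after 1 h and 24 h. E014 was not called at 22 °C. The retained-intron bin E014 of ATSNAK2 (AT3G45240), a protein kinase that acts upstream of SnRK1, had 11.4%, 12.96% and 14.6% in gemin2 and 2.43%, 2.86% and 4.17% in WT after 24 h, and 5.92%, 6.22% and 6.22% in gemin2 and 3.45%, 1.85% and 3.803% in WT at 22 °C. The libraries of the genotypes did not overlap. The other called bin, an alternative 5′ site of AT1G52100, had 1.36%, 1.73% and 1.31% in gemin2 and 0.131%, 0.265% and 0.346% in WT at 22 °C. After 24 h it held 0 counts in gemin2 and 3 in WT, too few to compare.

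**Figure D5:**
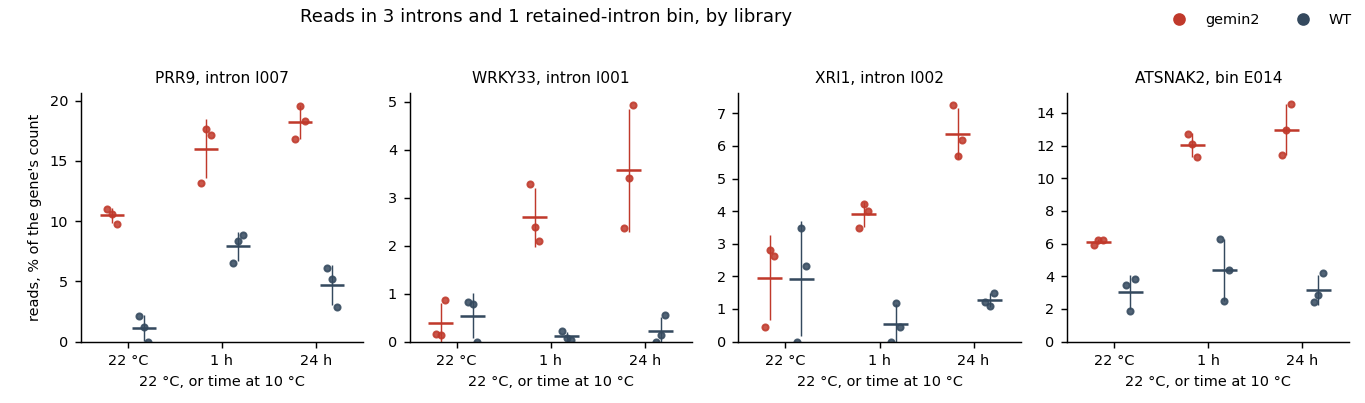
Reads of introns of PRR9, WRKY33 and XRI1 and of a retained-intron bin of ATSNAK2, as percent of the gene's count, by condition and genotype. Points are libraries, horizontal lines means and vertical lines ± 1 SD (n = 3); the PRR9 intron is higher in gemin2 in all conditions, and those of WRKY33 and XRI1 overlap between the genotypes at 22 °C.

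The authors' deposited tables of gemin2 against WT list 113 members at 22 °C, 131 after 1 h and 141 after 24 h, all with a positive log2 value, and 107 members are listed in all 3. The headers of the tables for 1 h and 24 h name WT over gemin2-1, but GEMIN2 has negative values in each of the authors' deposited tables, -1.80, -1.89 and -2.02, so their signs run as gemin2 over WT.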

How the data were processed

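RNA of whole plants was sequenced after poly(A) selection with a kit that does not mark strand, per the labels' protocols. The authors deposited counts per gene, intron and splicing bin, and the submitters' processing notes name TopHat2 2.0.9, R 3.0.2, edgeR 3.4.2 and TAIR10. The authors' deposited comparison tables hold log2 ratios and p-values with FDR, used here only for members listed and signs. Library letters in the column names could not be tied to the labels' replicate numbers.

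CPM, d and ranks were computed in Python 3.11.15 with pandas 2.3.3, over nuclear rows without 4 ribosomal RNA genes, and figures drawn with matplotlib 3.10.9. Cold comparisons used edgeR 4.0.16 in R 4.3.3 (TMM factors, filterByExpr, quasi-likelihood test, 6 groups fitted together, Benjamini-Hochberg adjustment over 21918 genes, threshold 0.05). Introns and bins with a mean of at least 10 counts were fitted with their gene's count as offset. DESeq2 1.42.0 and the settings of the closing section were alternatives. The fits were tested on simulated data. Promoter windows and sites come from RefSeq TAIR10.1, in which 570 of 575 member introns read GT to AG. Members and gene lists were chosen with earlier results of these data known. Named genes were drawn, with some left out for length, from the 24 highest by rank, members of the lists, those with the smallest adjusted p in each cold comparison, and those with called introns or bins. Members of the role groups were added after their values were seen.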

Additional observations from a re-analysis of the deposited data

Results flagged for a closer look

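AGO3 moved in opposite directions after 24 h at 10 °C, with every cold library apart from every 22 °C library in each genotype. Its log2 change was 2.57 in gemin2 and -0.95 in WT. The difference between the genotypes was not tested, because it is a difference of the values that chose the members.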

How the results depend on the processing

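Of the 150 members, 96 were chosen again with a minimum mean of 5 CPM, 133 with a minimum of 1 CPM, 133 and 109 with 0.1 and 2 CPM added, 134 with TMM scaling, and 131 to 144 with a library left out. With 1 library left out, the members called in the cold numbered 116 to 121 in gemin2 after 24 h (123 in full), 101 to 113 in WT after 24 h (113), 19 to 25 in gemin2 after 1 h (25) and 31 to 37 in WT after 1 h (41). DESeq2 called 122, 111, 31 and 44, and the replicate block by library letter 124, 114, 31 and 47, in the same order. Whether the letters pair the libraries is not settled. Deviations from group means correlated with a median r of 0.062 for the same letter (-0.115 to 0.426) and -0.05 for others (-0.29 to 0.174). Any pairing was thus weak, though the values for the same letter ran higher. Refits of single named genes in the cold lost the threshold 52 times with a library left out and 9 times under other alternatives, and 0 called values changed sign.

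Without the host gene's count as offset, 18, 31 and 35 member introns were called at 22 °C, 1 h and 24 h, against 5, 6 and 7, and 36 bins against 3, because the gene's own difference then counts as the intron's. GASA1 intron I001 after 24 h then had a log2 value of 0.1292, against -1.278. A minimum mean of 3 intron counts gave 15 calls at 24 h, with more introns tested, and the replicate block gave 5 bins. With a library left out, 3 to 4 introns were called at 22 °C (3 without WT library B or gemin2 library A or B), 4 to 6 after 1 h and 6 to 8 after 24 h. The other member introns, or their genes, had too few counts to be tested at this depth.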
